A study of Homo sapiens with 4 samples.

Results

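The chromatin around 5 genes that encode regulators of blood progenitor cells (MYB, GFI1, GFI1B, MEIS1 and MECOM) was described from ATAC-seq peak lists of HL-60 cells. HL-60 cells derive from a human myeloid leukemia, and all-trans retinoic acid (ATRA) drives them toward granulocytes. ATAC-seq uses the Tn5 transposase to cut and tag accessible DNA, and a peak is a stretch in which such tags accumulate. The ATRA group received 1 μM ATRA for 4 days, the control group received the same volume of ethanol for 4 days, and each group had 2 replicates. All cells were of 1 established line, and nothing in the lists separates fewer cells with an open site from less opening in every cell. Members of the set were the peaks of the 4 lists that overlapped the gene body of 1 of the 5 genes or 100 kb on either side. Peaks of different libraries that shared at least 1 bp were merged into regions, which gave 77 regions at the 5 genes, of 78063 in the genome. They held 42 of the 43494 peaks of ATRA replicate 1, 56 of the 63541 of ATRA replicate 2, 39 of the 42081 of control replicate 1 and 41 of the 45903 of control replicate 2.

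The 5 proteins regulate transcription in blood progenitors. MYB is a DNA-binding activator that keeps progenitors immature and dividing, and its level normally falls as granulocytes mature. Its known blood enhancers lie upstream, between the neighbouring gene HBS1L and MYB. GFI1 and GFI1B are related zinc finger repressors that recruit the demethylase KDM1A, its cofactor RCOR1 and histone deacetylases. GFI1 is needed for neutrophil development, and GFI1B acts mainly in erythroid and megakaryocytic cells. MEIS1 is a homeodomain partner of HOXA9 and PBX proteins, and MECOM encodes the zinc finger protein EVI1, a factor of stem cells and of some myeloid leukemias.

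Each region is named by its gene and by the distance of its centre from the 5′ end of that gene, with negative values upstream on the strand of the gene. The deposited score of a peak has no stated scale, so it was turned into a percentile within its own list, in which values near 100 are the strongest peaks. A library without a peak at a region has no percentile there, and a missing peak means that none was called, not that the site was closed. The sequences of 7 regions are shown: 6 because they carry the differences described further on, and the MYB promoter for reference. They were read from the plus strand of GRCh37 (hg19), the build of the peaks, and are up to 300 bases around the centre of each region, without bases annotated as UTR. Capitals mark the letters of 6 motifs searched on both strands: GATA (GATAA after A or T), RUNX (AACCACA), CEBP (TTGCNNAA), PU.1 (GAGGAAGT), MEIS (TGACAG) and MYB (AACNG after C or T, with G or T as N).
MYB -0.1 kb, promoter, no match, chr6:135502231-135502445: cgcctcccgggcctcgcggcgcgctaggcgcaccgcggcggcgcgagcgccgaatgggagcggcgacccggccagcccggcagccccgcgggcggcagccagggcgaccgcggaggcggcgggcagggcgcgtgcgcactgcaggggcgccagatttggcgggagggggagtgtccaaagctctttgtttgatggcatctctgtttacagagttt
MYB -4.6 kb, a RUNX and a MYB match, chr6:135497660-135497959: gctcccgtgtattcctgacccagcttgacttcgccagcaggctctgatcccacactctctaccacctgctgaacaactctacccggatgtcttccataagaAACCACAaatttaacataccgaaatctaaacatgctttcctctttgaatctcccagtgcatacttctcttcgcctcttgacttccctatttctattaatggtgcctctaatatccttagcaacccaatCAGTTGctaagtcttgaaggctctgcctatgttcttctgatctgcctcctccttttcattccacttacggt
MYB -32.0 kb, a MEIS and a MYB match, chr6:135470345-135470644: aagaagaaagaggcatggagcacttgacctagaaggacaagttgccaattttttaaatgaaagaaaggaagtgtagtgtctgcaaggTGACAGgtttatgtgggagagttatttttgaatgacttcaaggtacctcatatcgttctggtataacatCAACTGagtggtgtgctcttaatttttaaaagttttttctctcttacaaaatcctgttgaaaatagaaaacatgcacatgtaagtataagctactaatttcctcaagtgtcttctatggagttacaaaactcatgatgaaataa
GFI1 -0.3 kb, promoter, no match, chr1:92952622-92952921: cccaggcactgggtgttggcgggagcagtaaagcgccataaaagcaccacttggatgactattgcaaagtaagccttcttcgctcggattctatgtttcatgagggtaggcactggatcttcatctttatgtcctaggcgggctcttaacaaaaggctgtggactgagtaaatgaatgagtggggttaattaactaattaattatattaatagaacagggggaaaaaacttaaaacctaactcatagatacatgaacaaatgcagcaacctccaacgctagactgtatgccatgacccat
GFI1 -58.0 kb, a RUNX and a GATA match, chr1:93010314-93010613: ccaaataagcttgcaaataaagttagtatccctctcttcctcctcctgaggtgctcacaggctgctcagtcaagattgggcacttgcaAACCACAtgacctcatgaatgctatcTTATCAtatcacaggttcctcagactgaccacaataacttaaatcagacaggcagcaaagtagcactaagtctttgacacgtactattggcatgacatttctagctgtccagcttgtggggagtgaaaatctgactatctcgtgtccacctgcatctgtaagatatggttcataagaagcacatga
MECOM -83.4 kb, RUNX, MYB and CEBP matches, chr3:169464818-169465117: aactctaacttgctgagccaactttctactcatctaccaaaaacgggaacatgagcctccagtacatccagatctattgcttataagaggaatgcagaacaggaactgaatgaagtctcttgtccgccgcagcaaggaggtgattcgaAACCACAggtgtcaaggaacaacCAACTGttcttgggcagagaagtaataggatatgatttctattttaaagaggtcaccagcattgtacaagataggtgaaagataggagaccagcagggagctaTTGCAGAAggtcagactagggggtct
MECOM +335.6 kb, a PU.1 and 3 MYB matches, chr3:169045788-169046087: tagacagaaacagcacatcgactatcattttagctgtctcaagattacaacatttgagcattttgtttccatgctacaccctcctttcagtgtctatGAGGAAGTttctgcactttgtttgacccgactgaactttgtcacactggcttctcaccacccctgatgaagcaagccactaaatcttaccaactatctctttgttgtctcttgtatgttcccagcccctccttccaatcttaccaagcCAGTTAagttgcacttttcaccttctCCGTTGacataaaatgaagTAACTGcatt
The regions MYB -32.0 kb and MECOM +335.6 kb were added to this choice after their values were seen.

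The libraries differed in length and in peak width. The list of ATRA replicate 2 was the longest and had the widest peaks (median 416 bp), whereas medians in the other lists ran from 291 to 328 bp. Peak counts by gene and the numbers of regions found in 1 group alone are therefore also given for lists cut to an equal length of 42081 peaks. Of 8 promyelocytic and granulocytic marker genes, 3 had a promoter peak in all 4 libraries (CTSG, CEBPE and SPI1), 3 in some of them, and 2 in none (ELANE and AZU1). Of 5 genes of mature granulocytes, ITGAM and NCF1 had one in all 4 libraries, CSF3R in control replicate 1 alone, and FPR1 and CYBB in none. No promoter peak was called in any library for the 3 T cell genes (CD3D, CD3E and CD3G) or for the erythroid genes HBB and ALAS2. Of the B cell genes, CD79A had a promoter peak in ATRA replicate 2 alone and MS4A1 in none, and of the epithelial genes KRT8 had one in 3 libraries and EPCAM in none.

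Both ATRA libraries had fewer peaks at GFI1 than either control library, as at 2.3% of all protein-coding genes, and more at MECOM, as at 27.2% of them. At MYB, GFI1B and MEIS1 the groups overlapped in the full lists. GFI1 had 10 peaks in each control library, 7 in ATRA replicate 1 and 8 in ATRA replicate 2. MECOM had 8 peaks in control replicate 1, 6 in control replicate 2, 12 in ATRA replicate 1 and 21 in ATRA replicate 2. For GFI1 the ATRA mean was 7.5 ± 0.71 (SD, n = 2) against a control mean of 10 ± 0 (SD, n = 2; two-sided exact permutation p = 0.33). For MECOM the ATRA mean was 16.5 ± 6.36 (SD, n = 2) against 7.0 ± 1.41 (SD, n = 2; exact permutation p = 0.33). This p is the smallest that the 6 assignments of 4 libraries allow, so no count could pass a threshold. With lists of equal length the counts at GFI1 were 10 and 9 in the control libraries and 7 and 4 in the ATRA libraries, and those at MECOM were 8 and 6 against 11 and 11. At that length 12.8% of all genes had fewer peaks and 16.4% more peaks in both ATRA libraries than in either control library.

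MYB had 14 and 16 peaks in the control libraries and 13 and 16 in the ATRA libraries, a difference of -0.5 (exact permutation p = 1). The sign turned to 1 without ATRA replicate 1 and to 0.5 without control replicate 2. With lists of equal length MYB had 14 peaks in each control library and 11 and 12 in the ATRA libraries, a difference of -2.5 without overlap, and with peaks above the median score alone the difference was -3. GFI1B had 6 and 7 peaks in the control libraries and 7 and 10 in the ATRA libraries (exact permutation p = 0.667). MEIS1 had 1 and 2 against 3 and 1 (exact permutation p = 1). With lists of equal length the counts were 6 and 7 against 7 and 7 at GFI1B, and 1 and 1 against 3 and 1 at MEIS1. Over the 5 genes the difference was 9.0 peaks (exact permutation p = 0.33), and it was -1 with lists of equal length.

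**Figure D1:**
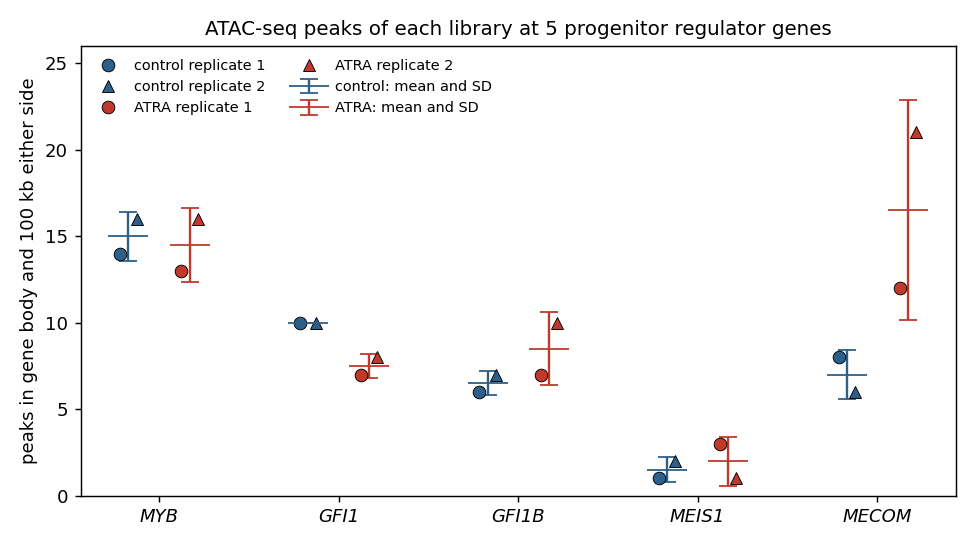
Number of ATAC-seq peaks (vertical axis) in the gene body and 100 kb either side of each of the 5 genes, by library; points are single libraries, and the dash and bars are the mean and SD of 2 replicates. GFI1 had 10 peaks in each control library against 7 and 8 in the ATRA libraries, whereas MECOM had 12 and 21 in the ATRA libraries against 8 and 6.

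The density of regions differed among the genes. There were 9.25 regions per 100 kb of window at MYB, 7.48 at GFI1, 4.84 at GFI1B, 2.95 at MECOM and 1.18 at MEIS1. The median over 20136 protein-coding genes was 4.08. MYB and GFI1 thus lay above it, MECOM and MEIS1 below it, and GFI1B near it.

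Of the 77 regions, 18 (23.4%) had a peak in all 4 libraries, compared with 30.3% of all regions in the genome. A peak in both control libraries and in neither ATRA library was found at 6 regions (7.79%), against 3.37% of all regions. A peak in both ATRA libraries and in neither control library was found at 9 regions (11.7%), against 8.94% of all regions. Both control libraries and 1 ATRA library shared 5 regions, both ATRA libraries and 1 control library shared 6, and 6 had a peak in 1 library of each group. The other 27 regions were found in 1 library alone. The control-only regions were 5 at GFI1 and 1 at MYB, and the ATRA-only regions were 5 at MECOM, 3 at MYB and 1 at GFI1. GFI1B and MEIS1 had neither kind. With lists of equal length there were 8 control-only regions (5 at GFI1 and 3 at MYB) and 5 ATRA-only regions (3 at MECOM and 2 at MYB). These counts depend on each library, because leaving one out loosens the definition: there were 21 ATRA-only regions without ATRA replicate 1 and 15 without ATRA replicate 2. Control-only regions numbered 11 without ATRA replicate 2, 12 without control replicate 1 and 10 without control replicate 2.

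MYB (chr6:135402446-135640311 with its flanks) had 22 regions, of which 6 lay between HBS1L and the MYB promoter. The upstream region with the highest percentiles in the control cells was MYB -32.0 kb (chr6:135470070-135470919), which is intergenic. It stood at percentile 87.9 in control replicate 1 and 90.3 in control replicate 2, at 44.0 in ATRA replicate 2, and had no peak in ATRA replicate 1. Its peaks were 784 and 810 bp wide in the control libraries and 670 bp in ATRA replicate 2. The control peaks were thus near the top of their lists, while the ATRA libraries gave a middling peak or none. MYB -7.6 kb (chr6:135494614-135495031), with 2 GATA matches, was present in the control libraries alone, at percentiles 60.8 and 29.8.

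The other regions between HBS1L and MYB ran the opposite way or did not separate the groups. MYB -4.6 kb (chr6:135497479-135498139), whose sequence is shown above with its RUNX and MYB matches, had percentiles of 66.8 and 58.8 in the ATRA libraries and no control peak. MYB -36.2 kb (chr6:135466111-135466413) was weaker, at 2.07 and 38.6 in the ATRA libraries, with no control peak. MYB -52.0 kb (chr6:135450184-135450714) was found in all 4 libraries, at 51.8 and 86.1 in the control cells and 34.7 and 86.7 in the ATRA-treated cells, so here the second replicates stood high and the first ones low in both groups. MYB -65.3 kb (chr6:135437024-135437182) had a peak in control replicate 2 alone, at percentile 20.1. Farther upstream, inside HBS1L, MYB -92.3 kb and MYB -91.9 kb had no peak in ATRA replicate 1. MYB -92.3 kb stood at 22.4 and 80.3 in the control libraries and at 21.8 in ATRA replicate 2. MYB -91.9 kb stood at 34.2 and 51.3 in the control libraries and at 32.2 in ATRA replicate 2. Both were added after their values were seen. Upstream of MYB there was thus 1 control-only region and 2 ATRA-only regions. With the ATRA-only region downstream, MYB had 1 and 3 of each kind, and 24.8% and 10.8% of protein-coding genes had as many or more. These shares take no account of the number of regions in a window, and 96.2% of genes had 22 regions or fewer in theirs.

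The promoter of MYB was covered by weak peaks. At MYB -0.6 kb (chr6:135501569-135502073) the percentiles were 11.9 and 35.3 in the ATRA libraries and 8.82 in control replicate 1, and control replicate 2 had no peak. At MYB -0.1 kb (chr6:135502163-135502597), which reaches into the 5′ UTR, only control replicate 1 had a peak, at 28.9. The promoter peaks thus did not follow the treatment. The third ATRA-only region, MYB +129.2 kb (chr6:135631480-135631724), overlapped an exon and UTR of the neighbouring gene AHI1, at percentiles 10.5 and 49.6.

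**Figure D2:**
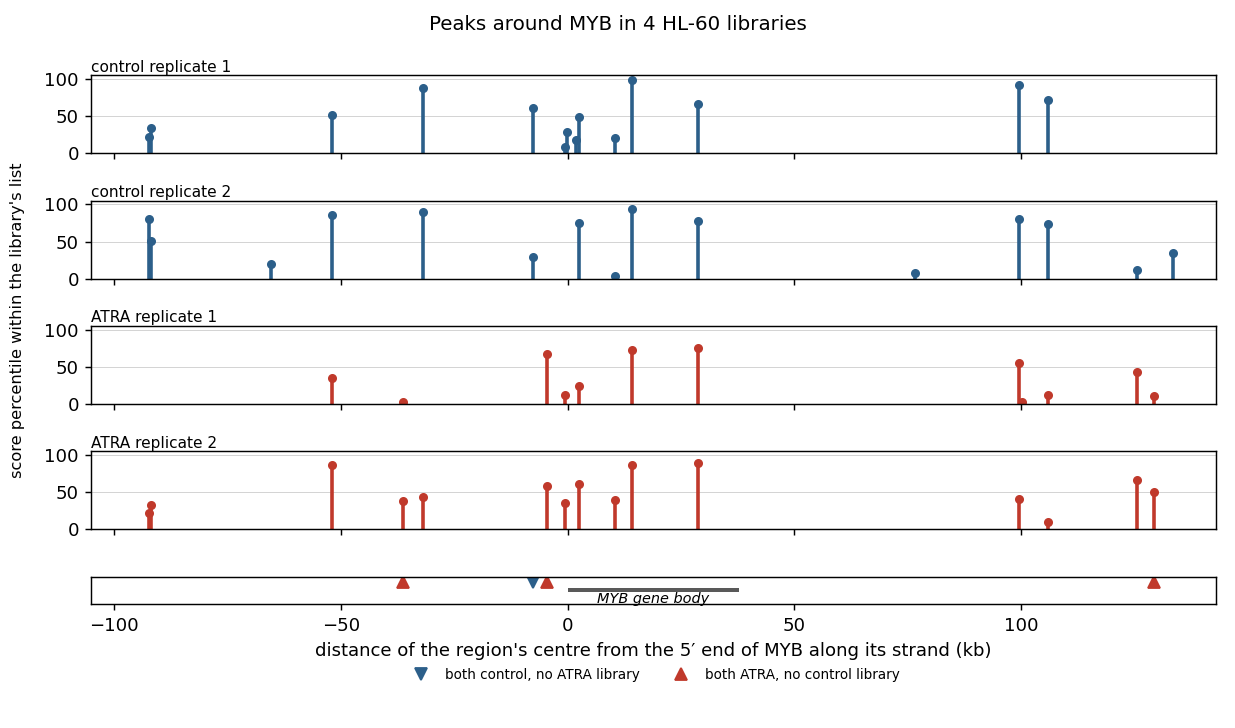
Regions around MYB in each library, with the distance of the region's centre from the 5′ end of MYB (kb) on the horizontal axis and the score percentile within the library's list on the vertical axis; the bottom track shows the gene body and the regions found in 1 group alone. The region at -32.0 kb reaches 87.9 and 90.3 in the control libraries, 44.0 in ATRA replicate 2 and has no peak in ATRA replicate 1.

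For regions with a peak in all 4 libraries the percentiles could be compared by a fit. Scores were ranked anew among the 23653 regions of the genome found in every library, and limma was fitted to these ranks with Benjamini-Hochberg adjustment over all of them. No region of the genome passed an adjusted p of 0.05 (smallest adjusted p = 0.234, limma), and 2996 regions had an unadjusted p under 0.05. At that unadjusted threshold 6.3% of the regions tested were higher in the ATRA libraries and 6.37% were lower. Among the 18 regions at the 5 genes, 1 was higher and 3 were lower at the unadjusted threshold, and all 3 lower ones were at MYB. These 3 regions and GFI1 +26.7 kb were singled out after their values were seen, as were MYB +2.6 kb, MYB +28.7 kb, GFI1B +86.7 kb, MEIS1 -4.2 kb and, at MECOM, the regions at +116.5, +335.6, +435.6 and +514.2 kb.

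MYB +14.2 kb (chr6:135516107-135517240) lies inside MYB, over exons of MYB and of the antisense gene MYB-AS1, and held 3 GATA matches and a MYB match. Its rank among shared regions was 97.1 and 88.6 in the control libraries and 54.7 and 66.1 in the ATRA libraries, a difference of -32.5 ± 7.58 points (SE; limma adjusted p = 0.234). MYB +105.9 kb (chr6:135607949-135608818), in an intron of AHI1 and with a GATA match, ranked at 54.9 and 54.2 in the control libraries and at 4.48 and 0.801 in the ATRA libraries. The difference was -51.9 ± 12.6 points (SE; limma adjusted p = 0.24). MYB +99.6 kb (chr6:135601755-135602340), an intergenic region with GATA, RUNX, CEBP and MEIS matches, ranked at 85.7 and 65.1 in the control libraries and at 34.7 and 8.64 in the ATRA libraries, with a difference of -53.7 ± 18.2 points (SE; limma adjusted p = 0.3). In all 3 regions both ATRA libraries ranked below both control libraries, which largely follows from their choice by the unadjusted threshold. None of them passed the adjusted threshold. MYB +14.2 kb passed it in other fits: without ATRA replicate 2 (adjusted p = 0.0277, limma), where all 121 regions called in the genome were lower, and on quantile-normalized log2 scores (adjusted p = 0.0395, limma), where 151 regions were called higher and 222 lower. The other shared regions of MYB, at +2.6 kb and +28.7 kb inside the gene and at -52.0 kb, differed by -25.6 ± 14.6, 11.6 ± 15.3 and -11.4 ± 22.6 points (SE), respectively. The sign at MYB -52.0 kb turned without ATRA replicate 1 (13.7) and without control replicate 2 (7.88).

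**Figure D3:**
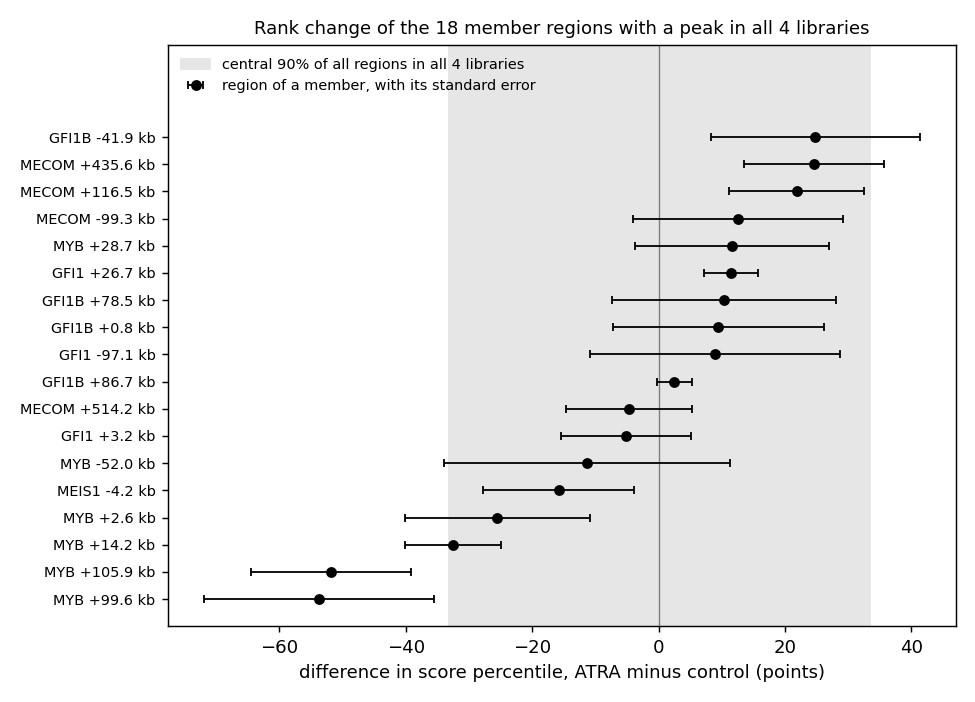
Difference in score percentile, ATRA minus control (horizontal axis, points), of the 18 regions at the 5 genes that had a peak in all 4 libraries, ranked among the regions shared by all libraries; bars are standard errors of the limma fit and the grey band holds the central 90% of all 23653 regions (-33.1 to 33.4). MYB +105.9 kb and MYB +99.6 kb lie to the left of the band, at -51.9 and -53.7.

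GFI1 (chr1:92838600-93052482 with its flanks) had 16 regions, and 5 of them were found in both control libraries and in neither ATRA library. A gene window with at least 1 such region was common (24.8% of protein-coding genes), but 5 or more of them were present at 0.0646% of genes (windows of neighbouring genes share regions). These shares take no account of the number of regions in a window, and 82.7% of genes had 16 regions or fewer in theirs. GFI1 -58.0 kb (chr1:93010213-93010713), in an intron of EVI5, stood highest among them by the mean, at percentiles 81.6 and 72.8, and the sequence shown above has a RUNX match close to a GATA match. GFI1 +10.5 kb (chr1:92941708-92942228), which overlaps an exon of GFI1, had percentiles of 67.3 and 76.7. It had none of the searched motifs in 200 bp around its centre, but GATA and PU.1 matches elsewhere in the region. GFI1 -0.3 kb (chr1:92952427-92953116), over the outermost start site of the gene, had percentiles of 22.9 and 15.2. The peaks at -58.0 kb and at +10.5 kb, the latter inside the gene, thus stood well above the one at the promoter.

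The other control-only regions were weak. GFI1 -76.7 kb (chr1:93029101-93029319), over an exon of EVI5 with a GATA match, had percentiles of 38.2 and 13.5, and GFI1 +75.2 kb (chr1:92877202-92877451), intergenic with an AP-1 match (TGACTCA or TGAGTCA), had 6.7 and 16.3. With lists of equal length GFI1 again had 5 control-only regions, and leaving out 1 library at a time gave 5 or 6. Of the 5, 2 lay within 50 kb of the gene, and the count was 2 when peaks below the median score of each list were dropped. The ATRA-only region, GFI1 -97.6 kb (chr1:93049878-93050258), lay in an intron of EVI5 at percentiles 38.4 and 24.5.

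The remaining promoter regions of GFI1 and its strongest distal site kept a peak in both groups. GFI1 +3.2 kb (chr1:92948877-92949704), over internal start sites, had a peak in all 4 libraries at 25.9 and 42.2 in the control cells and 39.5 and 0.252 in the ATRA-treated cells. GFI1 +1.6 kb (chr1:92949815-92951885) had percentiles of 35.7 and 0.62 in the control libraries and 17.7 in ATRA replicate 2, with no peak in ATRA replicate 1. Promoter accessibility at GFI1 was thus scattered over several weak peaks whose ranks differed between replicates. GFI1 +26.7 kb (chr1:92925157-92926439), downstream of the gene and with GATA, PU.1 and MYB matches, was strong throughout, at 91.6 and 87.5 in the control libraries and 93.9 and 98.5 in the ATRA libraries. Its rank among shared regions was higher by 11.4 ± 4.24 points (SE) in the ATRA libraries, which did not pass the adjusted threshold (limma adjusted p = 0.324) and was 6.31 without control replicate 2.

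**Figure D4:**
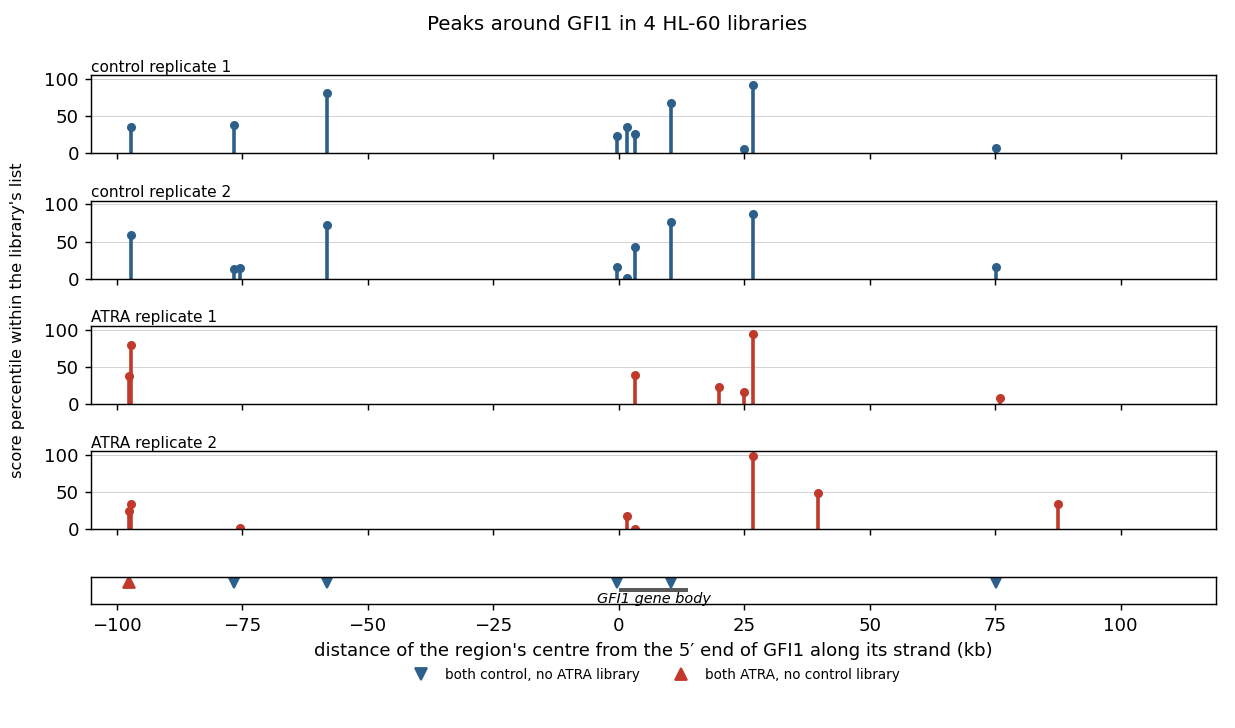
Regions around GFI1 in each library, with the distance of the region's centre from the 5′ end of GFI1 (kb) on the horizontal axis and the score percentile within the library's list on the vertical axis; the bottom track shows the gene body and the regions found in 1 group alone. The 5 control-only regions include -58.0 kb (81.6 and 72.8) and +10.5 kb (67.3 and 76.7), while +26.7 kb lies between 87.5 and 98.5 in every library.

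GFI1B (chr9:135719387-135967074 with its flanks), the paralog of GFI1, had 12 regions and no region found in both libraries of 1 group alone. Its promoter region, GFI1B +0.8 kb (chr9:135819800-135820487), was present in all 4 libraries at 58.4 and 41.1 in the control cells and 39.9 and 81.8 in the ATRA-treated cells. The nearest start site is that of TSC1, 12 bp from its centre, so the peak cannot be assigned to GFI1B. The rank difference was 9.44 ± 16.7 points (SE; limma adjusted p = 0.849), and its sign turned without ATRA replicate 2 (-6.99) and without control replicate 2 (-2.07). At the internal start sites of GFI1B only control replicate 2 had a peak, at percentile 9.49 (GFI1B +33.8 kb, chr9:135853136-135853307). The strongest region of the window, GFI1B +86.7 kb, lies at the promoter of GTF3C5 and stayed between 94.2 and 98.0 in the 4 libraries.

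MEIS1 (chr2:66560584-66901001 with its flanks) was nearly bare of peaks, with 4 regions. A peak over its start site was called in ATRA replicate 1 alone, at percentile 5.85 (MEIS1 +1.7 kb, chr2:66662153-66662409). The single region present in all 4 libraries was MEIS1 -4.2 kb (chr2:66656136-66656566), inside the antisense gene MEIS1-AS3, at 42.0 and 60.3 in the control cells and 39.7 and 37.5 in the ATRA-treated cells. Its rank difference was -15.8 ± 11.9 points (SE; limma adjusted p = 0.614).

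MECOM (chr3:168701287-169481563 with its flanks), the longest of the 5 genes, had 23 regions, and 5 of them were found in both ATRA libraries and in neither control library. At least 1 such region was present in the windows of 56.3% of protein-coding genes, and 5 or more in those of 1.47%. These shares take no account of window length. The MECOM window spans 780 kb, and 97.2% of genes had 23 regions or fewer in theirs. MECOM -83.4 kb (chr3:169464647-169465287), upstream of the gene, stood at percentiles 73.4 and 85.5, with the RUNX and MYB matches shown above. MECOM +449.6 kb (chr3:168931776-168932181), with a CEBP match, stood at 64.1 and 67.0, and MECOM +328.7 kb (chr3:169052571-169053194) at 56.6 and 57.1, both in introns. The replicates were close to each other at these 3 sites. The other ATRA-only regions, MECOM +509.9 kb and MECOM +353.0 kb, were weak, with percentiles from 2.74 to 7.72.

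The strongest ATRA peak of all 5 genes lay at MECOM +335.6 kb (chr3:169045472-169046402), in an intron, with the PU.1 match shown above near its centre. It reached percentiles of 99.2 and 99.0 in the ATRA libraries and 35.3 in control replicate 1, and control replicate 2 had no peak. Its peaks were 827 and 930 bp wide in the ATRA libraries and 293 bp in control replicate 1. Because 1 library lacked a peak, the fit did not include it. Without control replicate 2 it could be ranked and was higher by 76.7 ± 10.1 points (SE; limma adjusted p = 0.0301), a fit in which the single control library is assumed to vary like the ATRA libraries. The library left out is the one without the peak, and all 71 of the 26857 regions called in that fit were higher in the ATRA libraries.

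MECOM regions present in all libraries moved less. MECOM +435.6 kb, with GATA and RUNX matches, was at 88.0 and 67.3 in the control cells and at 92.1 and 95.7 in the ATRA-treated cells, a rank difference of 24.6 ± 11.1 points (SE; limma adjusted p = 0.401), which was 6.84 without control replicate 2 and 36.7 without control replicate 1. MECOM +116.5 kb was at 13.1 and 30.2 against 45.1 and 70.8, a rank difference of 21.9 ± 10.7 points (SE; limma adjusted p = 0.436), which was 33.6 without ATRA replicate 1. Both ATRA libraries stood above both control libraries at these sites, which were chosen with their values known and fell short of the adjusted threshold. No region lay over a start site of MECOM. The closest region shared by all 4 libraries, MECOM +514.2 kb, was centred 1817 bp from an internal start site, at 80.8 and 92.0 in the control cells and 77.8 and 92.8 in the ATRA-treated cells. The number of ATRA-only regions at MECOM was 3 with lists of equal length, 12 without ATRA replicate 1 and 6 without ATRA replicate 2.

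**Figure D5:**
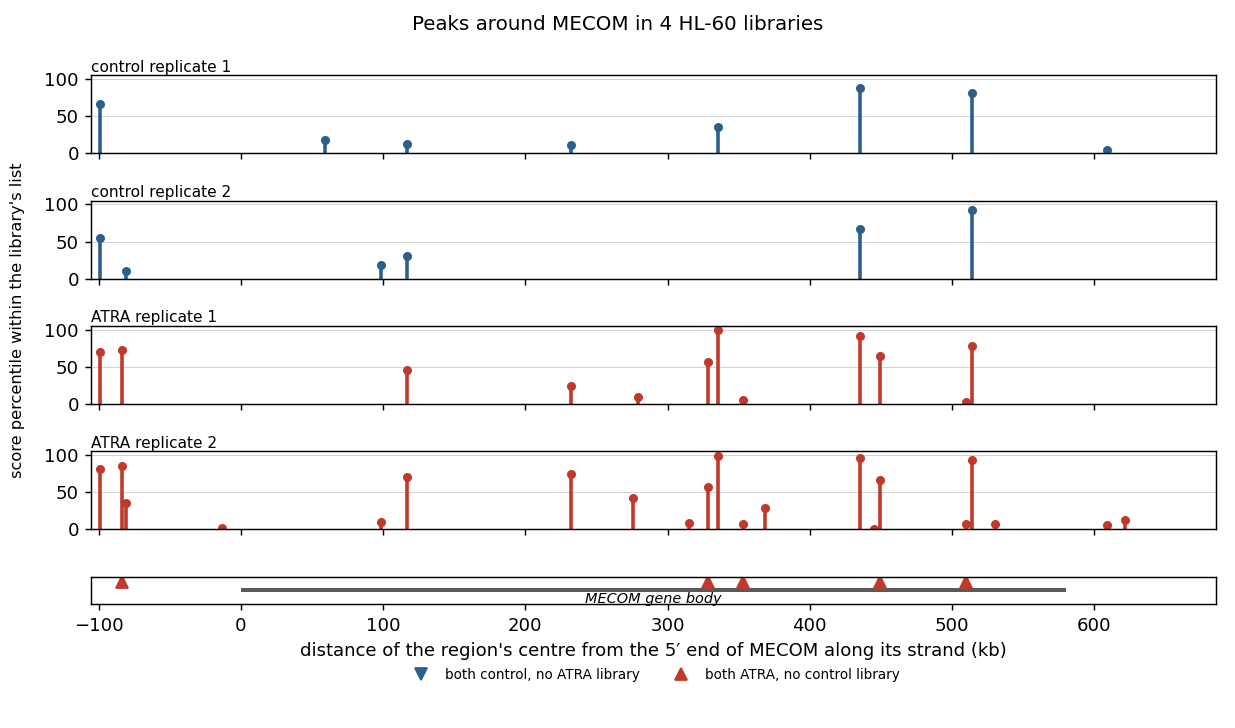
Regions around MECOM in each library, with the distance of the region's centre from the 5′ end of MECOM (kb) on the horizontal axis and the score percentile within the library's list on the vertical axis; the bottom track shows the gene body and the regions found in 1 group alone. The region at +335.6 kb reaches 99.2 and 99.0 in the ATRA libraries and 35.3 in control replicate 1, and the 5 ATRA-only regions run from -83.4 kb to +509.9 kb.

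The motif letters of the regions were counted in 200 bp around the centre and set beside all 78063 regions. A GATA match was found in 21 of the 77 regions (27.3%), compared with 18.8% of all regions, and 9 of these 21 were at MYB. Of the 6 control-only regions 3 had a GATA match (MYB -7.6 kb, GFI1 -58.0 kb and GFI1 -76.7 kb), as did 43.7% of the control-only regions of the genome. Of the 9 ATRA-only regions, 1 had a GATA match (MYB +129.2 kb), compared with 14.3% of such regions in the genome. The MYB motif itself was matched in 18 regions (23.4%, against 20.9%), in 4 of the 9 ATRA-only regions (18.8% of such regions in the genome) and in 0 of the 6 control-only regions (28.6%). The PU.1 letters were present in 9 regions (11.7%, against 8.94%), the RUNX letters in 9 (11.7%, against 8.55%) and the CEBP letters in 9 (11.7%, against 12.3%). The MEIS letters were found in 7 regions (9.09%, against 13.7%), and the letters of the GFI1 motif (AATCANNGC) in 1 region at MECOM. A CTCF match was found in 3 regions (3.9%, against 5.87%), an AP-1 match in 2 (2.6%, against 5.72%), and the retinoic acid receptor DR5 repeat or the combined HOX and MEIS motif (TGATTTAT) in none. A match to such letters describes the sequence and does not show that a factor was bound.

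The same counts were taken for other genes of the progenitor program. Of 15 other progenitor transcription factors, 8 had a promoter peak in all 4 libraries and 4 in none (TAL1, GATA2, ERG and HOXA9). None had a promoter region that passed the fit in either direction (limma, adjusted p of 0.05), and 1 was lower at the unadjusted threshold. That was the promoter of ZBTB16, the zinc finger repressor PLZF, at percentiles 80.9 and 85.7 in the control cells and 27.6 and 1.35 in the ATRA-treated cells. Of these 15 genes, 7 had a control-only region in their window and 12 an ATRA-only region, beside 24.8% and 56.3% of all protein-coding genes, and 10 of their 19 control-only regions were at ZBTB16.

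Among 13 genes for partners of the 5 proteins, 9 had a promoter peak in all 4 libraries and every one had it in at least 1 library. The promoters of HDAC2 (97.2 to 99.0) and HDAC1 (84.2 to 95.8), the histone deacetylases recruited by GFI1, and of the acetyltransferase EP300 (84.5 to 94.6), a coactivator of MYB, were strong in every library. KDM1A was at 69.3 to 84.2. No promoter of a partner passed the fit, and 1 (KMT2A) was higher in the ATRA libraries at the unadjusted threshold. Among 5 paralogs, MYBL1 was at 94.7 and 91.3 in the control cells and 97.4 and 97.7 in the ATRA-treated cells. The MYBL1 promoter was higher in the ATRA libraries at the unadjusted threshold, and no paralog promoter passed the fit. MYBL2 had a promoter peak in the ATRA libraries alone, at percentiles 6.96 and 36.7. MEIS2 had a promoter peak in all libraries, whereas MEIS3 and PRDM16, the paralog of MECOM, had none.

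The genes whose peak counts were most like those of each member were found over the 4 libraries by the Euclidean distance between log2(number of peaks + 1). For MYB these were FBXW8 and MGST2, with the same 4 counts (distance 0). For GFI1 they were PAQR5 (distance 0) and BRCA2 (distance 0.126), and for GFI1B 14 genes tied at distance 0, of which AP2S1 and ATF7IP come first by name. For MECOM they were CDC37 (distance 0.204) and SPECC1L (distance 0.212). For MEIS1 the closest were AGAP8 and KCNC2 (distance 0.888), because genes with fewer than 10 peaks over the 4 lists were left out. A likeness over 4 counts describes these lists alone.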

How the data were processed

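Accessible chromatin was measured by ATAC-seq in 4 HL-60 libraries (2 ATRA, 2 control), grouped by sample title. Per the labels and the methods, the authors trimmed adapters with cutadapt, mapped to hg19 with Bowtie and ran MACS on each library separately. Any shift toward the Tn5 cut site, the treatment of PCR duplicates and a filter on repeats are not given in the sources used here, so peak edges may lie some bases off the cut sites. The deposited lists give positions and a score, which runs from 50 to 3100 and has no stated scale, and it was used only for ranks within a list. They hold no read counts, so the depth of each library is unknown, and a deeper library can give more and wider peaks.

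Coordinates are 1-based on GRCh37 (24 chromosomes), with GENCODE 44 lifted to it. The 5 genes, the gene lists and the rule for named regions were chosen with earlier results of these data known. Named were regions over a coding transcription start site (1 kb upstream to 100 bp downstream), regions in both libraries of 1 group alone, regions between HBS1L and MYB, and regions called by the fit. Other regions named were chosen after their values were seen. A gene of like pattern had 10 or more peaks and a window that did not overlap the member's. Peak counts were compared by a two-sided exact permutation test over libraries, and ranks by limma 3.58.1 (lmFit, eBayes with trend) in R 4.3.3. The same fit was also run on simulated ranks, with an outcome not reported here. Replicates are separate samples. The exact permutation p counts assignments of the libraries to groups, and the limma p sets a difference against the spread between replicates. Neither covers variation beyond these 4 libraries. In limma the variance of each region is moderated toward a trend over all regions fitted. Its SEs and p-values therefore do not rest on the 4 libraries of that region alone. Motifs were searched as consensus letters in 200 bp about the centre. Python 3.11.15, pandas 2.3.3, scipy 1.17.1, pysam 0.24.0 and samtools 1.23.1 were used. Alternatives were other windows (50 kb, gene body), lists of equal length, a stricter score, 200 bp peaks, a larger overlap, other rank scales, a replicate block and leaving out each library. Some genes of the marker lists are not reported here.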

Additional observations from a re-analysis of the deposited data

How the results depend on the processing

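The peak lists limit every comparison: 2 libraries per group, no depth, and 1 library (ATRA replicate 2) with a longer list of wider peaks. The difference of 9.0 peaks over the 5 genes became -1 with lists of equal length and ran from 2 to 16 when 1 library was left out. The 6 control-only regions became 3 with 50 kb windows, 2 with the gene bodies alone, and 6 to 12 without 1 library. The 9 ATRA-only regions became 5 with lists of equal length, 5 with scores above the median, 4 with the gene bodies alone, and 11 to 21 without 1 library. Setting peaks to 200 bp or asking for a larger overlap left both counts within 1.5 times. Motif matches over the named regions went from 21 to 42 with whole regions searched, which are longer. The fit called no member region, 0 to 1 without 1 library, 1 on quantile-normalized log2 scores (MYB +14.2 kb, adjusted p = 0.0395, limma) and 2 with the replicate number as a block (MYB +14.2 kb and MYB +105.9 kb). Over the genome limma called 1063 regions with this replicate block (adjusted p = 0.00796 at MYB +14.2 kb and 0.0167 at MYB +105.9 kb), 373 on log2 scores, and 71 to 121 without 1 library, each time in 1 direction (lower without an ATRA library, higher without a control library), against 0 in the fit reported. The labels give only a number, the deviations of same-numbered libraries correlated by 0.235 over 23653 regions, and 2 pairs cannot settle a pairing. Leaving out 1 library gave from -2 to 1 peaks at MYB, from -0.5 to 1.5 at MEIS1 (-0.5 also with scores above the median), and rank differences from -35.2 to 13.7 at MYB -52.0 kb, from -19 to 5.88 at GFI1 +3.2 kb and from -6.99 to 28.3 at GFI1B +0.8 kb. The cause of these changes was not tested.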
